A study of Mus musculus with 6 samples.

Results

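The genes described here are 39 genes of the neuronal cytoskeleton, out of 26656 genes in the deposited expression tables. They comprise 12 tubulins, 4 stathmins, 5 structural microtubule-associated proteins (MAPs), 1 plus-end binding protein, 3 collapsin response mediator proteins (CRMPs), 3 growth cone membrane proteins, 6 intermediate filament proteins and 5 motor proteins. They were chosen by name, as the tubulins and cytoskeletal proteins that neurons use, with earlier results of these data known, and each was found by its gene symbol. RNA was sequenced from N2a cells, a line derived from a mouse neuroblastoma and labelled as wild type in genotype. The cells received either one short hairpin RNA (shRNA) against *Npm1* in the pLKO.1 plasmid (NPM1 KD) or a non-target shRNA in the same plasmid (CTR). RNA of both groups was taken 72 h after transfection, and the protocol adds puromycin at 9.3 µg/ml from 24 h. Each group has 3 libraries, which the series text calls biological replicates, whereas the treatment protocol of the samples speaks of 2. NPM1 (nucleophosmin) is an abundant protein of the nucleolus, and the comparison asks which transcripts differ when it is depleted. A single shRNA sequence was used, so an effect of NPM1 loss and an effect of this hairpin on other transcripts cannot be told apart. In bulk RNA, fewer cells of a kind and less RNA per cell cannot be told apart either.

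Microtubules are hollow polymers of alpha- and beta-tubulin dimers, and gamma-tubulin nucleates them. Stathmins bind free tubulin dimers, MAPs such as tau stabilize the polymer, CRMPs guide its assembly in growing axons, and kinesins and dynein walk along it. Neuronal cells use particular isotypes, of which beta-III-tubulin (*Tubb3*) is a common marker of neurons. Peripherin and vimentin form intermediate filaments, a second and more stable network that is prominent in peripheral neurons and in neuroblastoma cells. Cells also adjust tubulin mRNA to the supply of free dimers: the first residues of a tubulin chain are read as it leaves the ribosome, and the mRNA is degraded when dimers are in excess.

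Because of this regulation, and because reads of near-identical tubulins are hard to assign, the starts of the coding sequences are shown. These are the first 30 bases of 10 of the 11 alpha- and beta-tubulins, all but *Tubb6*, from the annotated transcripts in GENCODE M21, with the first 4 codons in capitals.

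*Tuba1a*: ATGCGTGAGTGCatctccatccatgttggc
*Tuba1b*: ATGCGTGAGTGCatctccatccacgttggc
*Tuba1c*: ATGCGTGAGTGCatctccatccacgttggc
*Tuba4a*: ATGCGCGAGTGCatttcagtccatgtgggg
*Tubb2a*: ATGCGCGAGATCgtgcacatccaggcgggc
*Tubb2b*: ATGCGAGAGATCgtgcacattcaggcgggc
*Tubb3*: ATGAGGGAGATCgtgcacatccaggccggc
*Tubb4a*: ATGCGGGAAATCgtgcacctgcaagccggt
*Tubb4b*: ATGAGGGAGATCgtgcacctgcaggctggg
*Tubb5*: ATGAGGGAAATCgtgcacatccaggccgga

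The 3 *Tuba1* genes shared the same 12 capital bases, and *Tubb3* and *Tubb4b* shared theirs. These are matches of bases and not of residues. All the alpha-tubulin starts shown encode the residues MREC, and all the beta-tubulin starts shown encode MREI. Over the whole coding sequence, *Tuba1a* and *Tuba1b* were 98.3% identical, *Tuba1a* and *Tuba1c* 97.2%, and *Tuba1b* and *Tuba1c* 98.0%. *Tubb2a* and *Tubb2b* were 96.5% identical, whereas *Tubb3* and *Tubb5* were 81.7% identical to each other.

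Each gene and library has a deposited regularized log (rlog) value, a log2 expression level corrected for the size of the library, in which genes with few reads are drawn towards their own mean. All 75364 values of 1 or more in size were whole numbers, so a difference of 1 unit, a nominal factor of 2, is the smallest step that a library can show. *Npm1* itself was at 10 in each CTR library and at 8 in each NPM1 KD library. It fell by 2 on the log2 scale (log2 fold change −2, standard error (SE) 0.33, adjusted p = 3.23e-06 by limma over 5752 genes), and the call held without any one library (adjusted p 0.00022 to 0.00106). When the unrounded values were drawn at random within the rounding, no gene passed the threshold, *Npm1* included (adjusted p = 0.992). The relative depth was 1.11 to 1.30 in the CTR libraries and 0.784 to 0.961 in the NPM1 KD libraries, so the CTR libraries were deeper without overlap; its part in the results was not tested. Of 12 markers of neuroblastoma and sympathoadrenal neurons, 6 passed the filter on low values. Of these, *Chga* (7, 7, 7 in CTR and 5, 6, 6 upon NPM1 KD) and *Chgb* (8, 8, 7 and 6, 6, 6) fell, with adjusted p = 0.026 and 0.0011 by limma, while *Hand2* (8, 7, 8 and 8, 8, 8) did not pass the test. The *Chga* call was lost without any one of the 6 libraries (adjusted p 0.0704 to 0.248), and the *Chgb* call without CTR replicate 1 or 2 (adjusted p up to 0.113). None of the markers of fibroblasts, astrocytes, oligodendrocytes, immune, endothelial or epithelial cells passed the filter; the highest mean normalized count among them was 4.19 (*Pdgfrb*).

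Upon NPM1 KD, the cytoskeletal genes whose groups did not overlap were all lower, mostly by 1 rlog unit. Of the 39 genes, 5 were listed at 0 in every library (*Tuba4a*, *Tubb4a*, *Dcx*, *Nefl* and *Nefm*) and 3 were below the filter (*Tubb4b*, *Map2* and *Nes*), which left 31 tested. The vimentin gene *Vim* was the only one past the threshold in limma (1 lower, 0 higher), where 0.417% of all tested genes were called lower, 0.0695% higher and 0.487% in either direction. In 7 genes all 3 NPM1 KD values lay below all 3 CTR values: *Tubb3*, *Tubb5*, *Stmn2*, *Mapt*, *Gap43*, *Prph* and *Vim*. These are 22.6% of the 31 genes, against 3.41% of all tested genes, and no cytoskeletal gene was higher in this way, against 2.19%. The 7 genes had mean normalized counts of 102 to 759, above the median of 28.4 over all tested genes. The part of expression level in these shares was not tested. The mean difference was below 0 in 17 genes, above 0 in 3 and 0 in 11, of which 10 had a single value in all 6 libraries. Over all tested genes, 27.4% had a mean below and 24.6% a mean above that of CTR, and 40.2% had a single value throughout. The median log2 fold change was −0.33 over the 31 genes and 0 over all tested genes; for the 31 it was 0 without NPM1 KD replicate 1 and −0.5 without NPM1 KD replicate 3. For single genes, an exact permutation test of 3 against 3 libraries cannot go below p = 0.1, the value each of the 7 genes had.

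**Figure D1:**
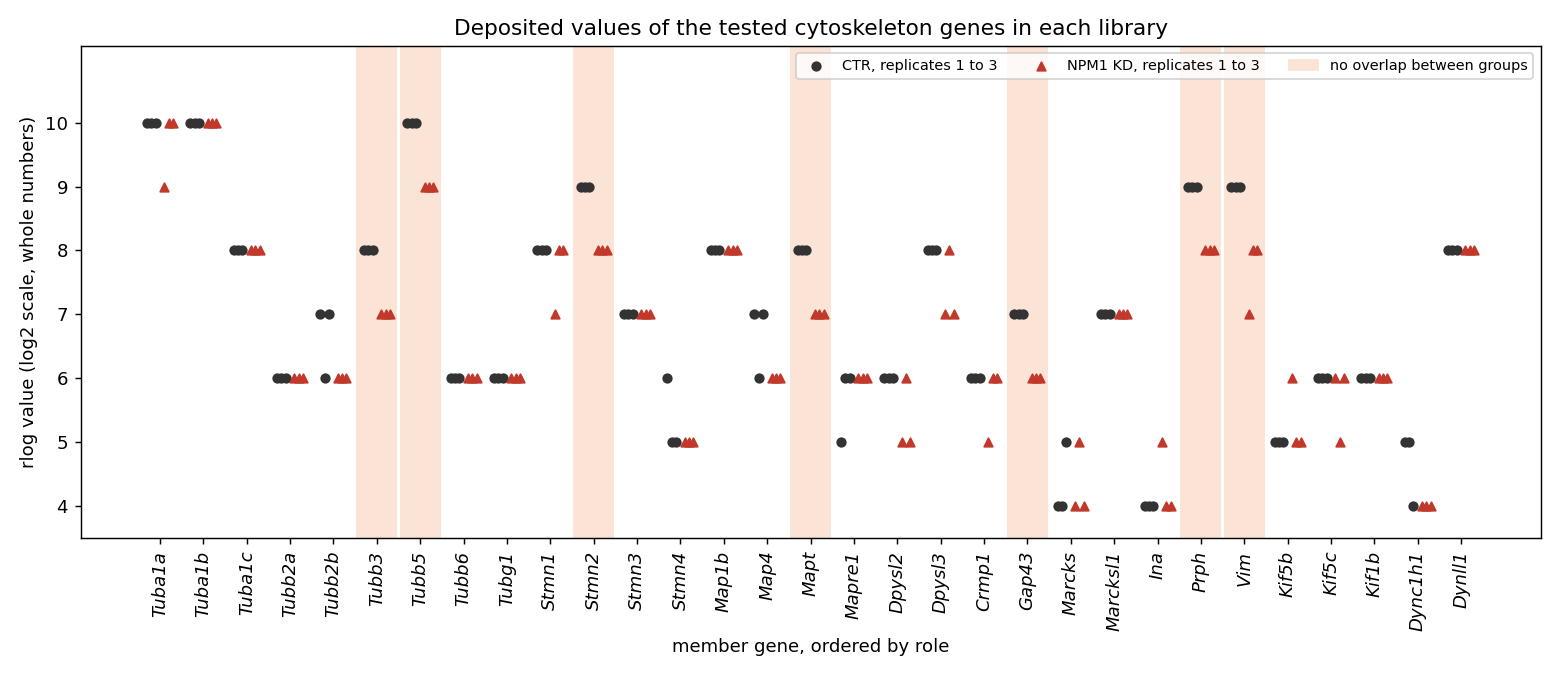
The rlog value (log2 scale, whole numbers) of each of the 31 tested cytoskeletal genes in the 3 CTR libraries (circles) and the 3 NPM1 KD libraries (triangles), ordered by role, with points shifted sideways so that all are visible. Shading marks the 7 genes whose groups did not overlap; in each of them the NPM1 KD values are lower.

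The mean over the 31 genes was 7.06, 7.0 and 7.06 in the CTR libraries and 6.61, 6.74 and 6.68 in the NPM1 KD libraries. Over all tested genes these means were 5.31 in each CTR library and 5.27 to 5.30 upon NPM1 KD. Between any pair of CTR libraries 4 of the 31 genes had different values, between NPM1 KD libraries 4 to 10, and between a CTR and an NPM1 KD library 10 to 19. The first NPM1 KD library was the lowest, and in *Tuba1a*, *Stmn1* and *Crmp1* it alone was 1 unit below the rest.

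Among the beta-tubulins, 2 of 5 tested genes stood lower without overlap and none passed the threshold. *Tubb3* (ENSMUSG00000062380), the neuronal isotype, was at 8 in each CTR library and at 7 in each NPM1 KD library, with a mean normalized count of 208. *Tubb5* (ENSMUSG00000001525), the widely expressed isotype, was at 10 in each CTR and at 9 in each NPM1 KD library, with a mean normalized count of 759. For both the log2 fold change was −1, with an SE of 0.35 and 0.33 and adjusted p = 0.0791 by limma; the 95% interval was −1.68 to −0.32 for *Tubb3* and −1.64 to −0.36 for *Tubb5*. The developmental isotype *Tubb2b* was at 7, 6 and 7 in CTR and at 6 in each NPM1 KD library, so the groups overlapped (log2 fold change −0.67, adjusted p = 0.33 by limma). Its neighbour in sequence, *Tubb2a*, was at 6 in all 6 libraries, as was *Tubb6*. The 95% interval for each of these was −0.67 to 0.67. The intervals given for single genes do not bound the unrounded difference, whose possible range is given with the rounding below. *Tubb4b* was at 2 in every library, under the filter.

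The alpha-tubulins supply the other subunit of the dimer, and none of the 3 tested passed the test. *Tuba1a*, the main isotype of developing neurons, was at 10 in each CTR library and at 9, 10 and 10 upon NPM1 KD (log2 fold change −0.33, SE 0.32, adjusted p = 0.713 by limma). *Tuba1b* was at 10 and *Tuba1c* at 8 in all 6 libraries, with intervals of −0.63 to 0.63 and −0.67 to 0.67, which again do not bound the unrounded difference. The gamma-tubulin gene *Tubg1*, which acts at the centrosome, was at 6 throughout.

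Several tubulins had near-identical copies with counts of their own in the tables, a copy being defined as at least 90% identity over at least 50% of the coding sequence. Of the 39 genes, 9 had such a copy in the tables, and 7 had one outside the 39. The copies were looked up after the values had been seen. For the 3 *Tuba1* genes, 5 processed pseudogenes had counts, and their mean normalized counts added up to 2793, against 2226 for the 3 genes. *Gm17383* was at 10 in each CTR library and at 9, 10 and 10 upon NPM1 KD, the values of *Tuba1a*. *Gm5620* was at 10 in each CTR library and at 9, 9 and 10, *Gm3756* at 9 and at 8, 9 and 9, *Gm6682* at 6 and at 5, 6 and 6, and *Gm14150* at 9 in all 6. None of them passed the test, and in each of the 4 that varied the first NPM1 KD library was 1 unit below CTR. The *Tubb4b* pseudogene *Tubb4b-ps1* had a mean normalized count of 132 and was at 7 in all 6 libraries, while *Tubb4b* itself had 3.2. Reads of a gene and of such a copy cannot be told apart in the tables, so the levels of *Tuba1a*, *Tuba1b*, *Tuba1c* and *Tubb4b* are uncertain. By the same definition *Tubb2a* and *Tubb2b* are copies of each other (mean normalized counts 79.0 and 75.6), and *Tubg2* is a copy of *Tubg1*. The levels of *Tubb2a*, *Tubb2b* and *Tubg1*, and the contrast between *Tubb2a* and *Tubb2b*, are therefore uncertain too. *Tubb3* and *Tubb5* had no copy of this kind in the tables.

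**Figure D2:**
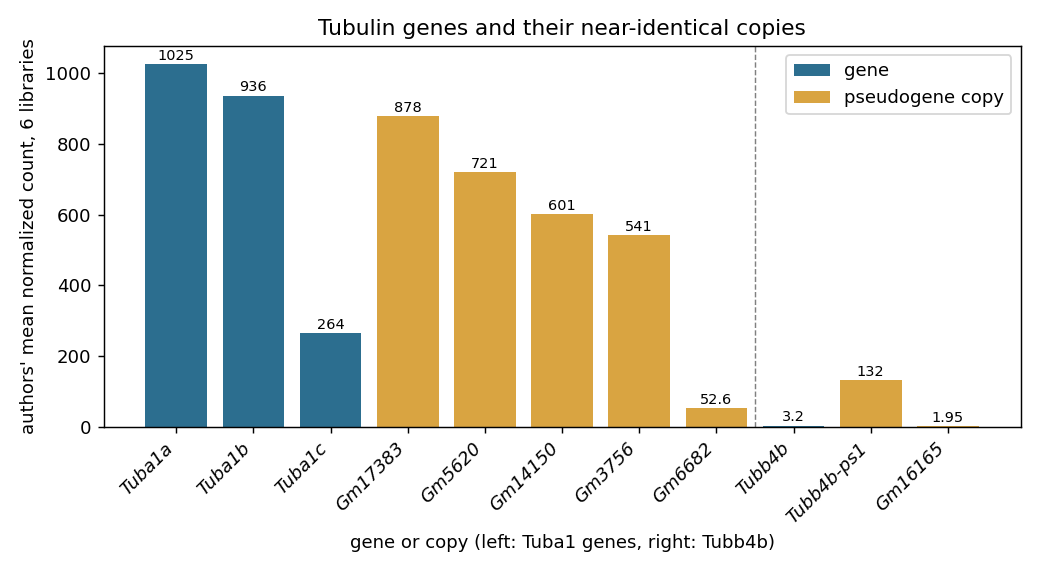
Mean normalized count over the 6 libraries, as given by the authors, for the *Tuba1* genes and *Tubb4b* and for their near-identical pseudogene copies (bars start at 0; no error, as the mean is a single deposited value). The copies of the *Tuba1* genes reach 878 (*Gm17383*), and *Tubb4b-ps1* has 132 where *Tubb4b* has 3.2.

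Of the 4 stathmins, which sequester tubulin dimers, 1 stood lower without overlap. *Stmn2* (ENSMUSG00000027500), a neuronal protein of growing axons, was at 9 in each CTR and at 8 in each NPM1 KD library, with a mean normalized count of 327. Its log2 fold change was −1 (SE 0.34, adjusted p = 0.0791 by limma). *Stmn1*, the form found in many dividing cells, was at 8 in each CTR library and at 7, 8 and 8 upon NPM1 KD. *Stmn4* was at 6, 5 and 5 in CTR and at 5 in each NPM1 KD library, and *Stmn3* was at 7 throughout.

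Among the proteins that bind the polymer, *Mapt* (ENSMUSG00000018411), which encodes tau, was at 8 in each CTR library and at 7 in each NPM1 KD library. The mean normalized count was 197, and the log2 fold change was −1 (SE 0.35, adjusted p = 0.0791 by limma). *Map4*, a MAP of many cell types, was at 7, 6 and 7 in CTR and at 6 in each NPM1 KD library, the same values as *Tubb2b*. *Map1b*, an axonal MAP that appears early in development, was at 8 in all 6 libraries. The dendritic *Map2* was under the filter, at 3 in every library but the third NPM1 KD library, where it was at 2. *Mapre1*, which encodes the plus-end protein EB1, was at 5, 6 and 6 in CTR and at 6 in each NPM1 KD library, a mean difference of 0.33 (adjusted p = 0.713 by limma).

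All 3 CRMP genes had a lower mean upon NPM1 KD, with overlapping groups and no gene past the test. *Dpysl2* was at 6 in each CTR library and at 5, 6 and 5 upon NPM1 KD, and *Dpysl3* at 8 and at 7, 8 and 7. In both the second NPM1 KD library was at the CTR value (log2 fold change −0.67, adjusted p = 0.33 by limma). *Crmp1* was at 6 in each CTR library and at 5, 6 and 6 upon NPM1 KD. Of the growth cone membrane proteins, *Gap43* (ENSMUSG00000047261) was at 7 in each CTR and at 6 in each NPM1 KD library. It had a mean normalized count of 102 and a log2 fold change of −1 (SE 0.35, adjusted p = 0.0791 by limma). *Marcks* and *Marcksl1*, which link actin to the membrane, had a mean difference of 0: *Marcks* was at 4, 4 and 5 in CTR and at 4, 5 and 4 upon NPM1 KD, and *Marcksl1* at 7 throughout.

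The intermediate filament genes held the one gene that fell. *Vim* (ENSMUSG00000026728) was at 9 in each CTR library and at 7, 8 and 8 upon NPM1 KD, so every NPM1 KD value was below every CTR value. Its mean normalized count was 336 and its log2 fold change −1.33 (SE 0.34, 95% interval −2.0 to −0.66, adjusted p = 0.026 by limma). The call did not hold when any one of the 6 libraries was left out: the log2 fold change then ran from −1.5 to −1 and the adjusted p from 0.0704 to 0.248. *Prph* (ENSMUSG00000023484), which encodes peripherin, was at 9 in each CTR and at 8 in each NPM1 KD library, with a mean normalized count of 415 (log2 fold change −1, SE 0.34, adjusted p = 0.0791 by limma). The neuronal *Ina* (alpha-internexin) was at 4 in each CTR library and at 5, 4 and 4 upon NPM1 KD. *Nes* (nestin) was under the filter at 2 or 3, and the neurofilament genes *Nefl* and *Nefm* were listed at 0.

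None of the 5 motor genes differed without overlap. *Dync1h1*, the heavy chain of cytoplasmic dynein, was at 5, 5 and 4 in CTR and at 4 in each NPM1 KD library (log2 fold change −0.67, adjusted p = 0.33 by limma). The kinesin genes *Kif5b* (5 in CTR; 6, 5 and 5 upon NPM1 KD) and *Kif5c* (6; 6, 5 and 6) each differed in a single library, in opposite directions. *Kif1b* was at 6 and the dynein light chain gene *Dynll1* at 8 in all 6 libraries.

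A step of 1 unit appears where a level crosses a rounding boundary, the point midway between whole numbers. A step of 1 in every library can stand for an unrounded mean difference anywhere between 0 and 2, and the genes with a single value in all libraries may hide one of up to 1. A gene that stepped and one that did not, such as *Stmn2* and *Stmn3*, are therefore not shown to differ in response. The distance of each gene from a boundary was taken from the log2 of its mean normalized count over all 6 libraries, which lay near the mean rlog value (median offset −0.04). A gene that steps by 1 between the groups has its mean near a boundary by construction, so these distances describe the genes and show no cause. The 7 genes without overlap lay 0.0673 to 0.202 from a boundary, and the 10 genes with a single value 0.197 to 0.480. Within 0.25 of a boundary, a limit chosen after the values had been seen, lay 19 tested cytoskeletal genes. The mean difference was below 0 in 14 of them, which include the 7 genes without overlap, and above 0 in 3. Over all tested genes at that distance it was below 0 in 38% and above 0 in 36.4%. The part of rounding in these counts was not tested.

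**Figure D3:**
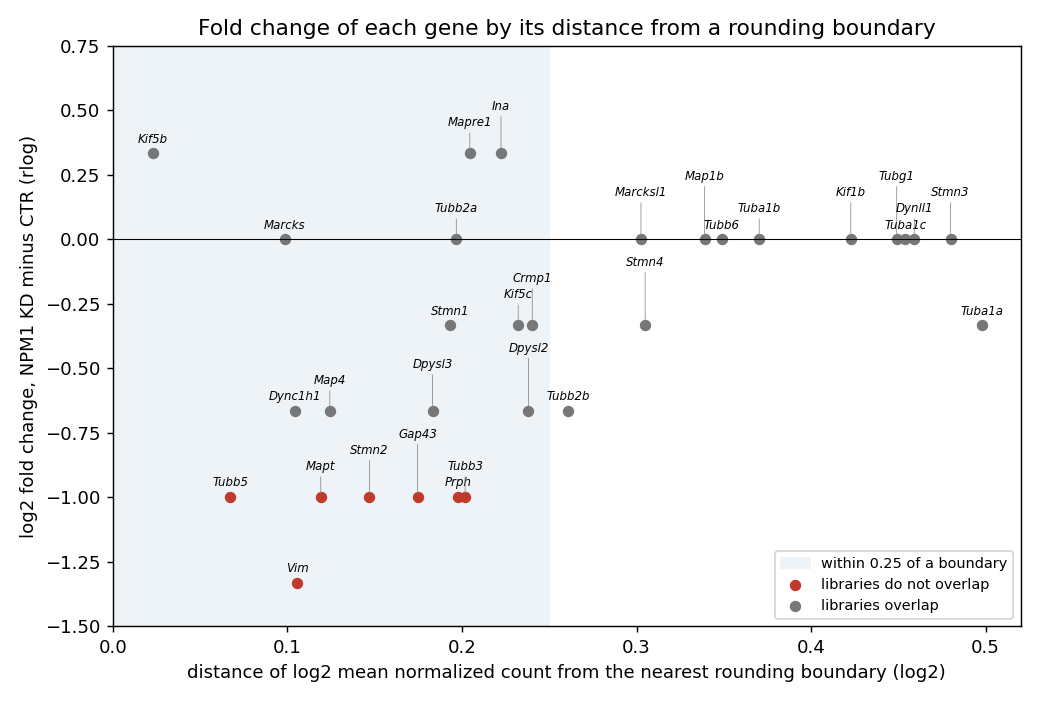
Log2 fold change (NPM1 KD minus CTR, rlog) of each of the 31 tested cytoskeletal genes against the distance of its log2 mean normalized count from the nearest rounding boundary, midway between whole numbers. The shaded zone is within 0.25 of a boundary; the 7 genes whose groups did not overlap (red) lie in it, where a gene that steps by 1 falls by construction, and 14 of the 19 genes in it are below 0.

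Promoters of the genes that stepped together are shown where the RefSeq table holds them. It has an entry for 25 of the 39 genes, and for 4 of the 7 without overlap. The 250 bases before the annotated start are printed 5′ to 3′ on the strand of the gene, build GRCm38.p6, with the matches to 3 motifs on either strand in capitals, none of which overlap. These were GGGCGG, the core of a GC box, then CCAAT for the CAAT box, and lastly TATAAA for the TATA element; 3 further motifs searched, given below by their letters, are not in capitals.

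*Prph* (chr15:99054924-99055173, plus strand): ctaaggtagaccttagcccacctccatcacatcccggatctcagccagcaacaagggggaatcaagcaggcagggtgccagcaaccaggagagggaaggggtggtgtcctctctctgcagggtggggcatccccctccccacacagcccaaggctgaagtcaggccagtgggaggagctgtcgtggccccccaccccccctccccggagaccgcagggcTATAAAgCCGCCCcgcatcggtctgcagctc
*Tubb3* (chr8:123411303-123411552, plus strand): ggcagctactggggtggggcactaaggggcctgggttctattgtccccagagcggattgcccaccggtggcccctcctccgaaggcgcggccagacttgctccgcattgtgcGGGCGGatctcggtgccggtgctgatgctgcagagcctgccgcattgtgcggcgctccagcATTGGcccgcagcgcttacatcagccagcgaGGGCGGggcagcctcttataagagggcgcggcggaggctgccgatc
*Tubb5* (chr17:35838302-35838551, minus strand): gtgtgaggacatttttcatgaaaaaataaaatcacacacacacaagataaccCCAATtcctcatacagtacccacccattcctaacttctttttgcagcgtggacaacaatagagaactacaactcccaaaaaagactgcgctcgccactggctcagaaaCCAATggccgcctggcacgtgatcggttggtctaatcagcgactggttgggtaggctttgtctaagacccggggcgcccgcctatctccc
*Vim* (chr2:13574061-13574310, plus strand): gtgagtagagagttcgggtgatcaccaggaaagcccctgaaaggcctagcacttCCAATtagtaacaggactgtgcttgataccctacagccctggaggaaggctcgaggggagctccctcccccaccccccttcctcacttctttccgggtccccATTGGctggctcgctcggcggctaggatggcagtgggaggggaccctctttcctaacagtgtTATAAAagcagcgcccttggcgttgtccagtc

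The GC box was found in 2 of the 4 (*Prph* and *Tubb3*), in 13 of 19 tested cytoskeletal genes with an entry, and in 32.7% of 32851 promoters of the same length. A cytoskeletal gene was counted if any of its entries held the motif. The shares over all promoters are per entry, of genes tested or not, so counts and shares are unlike measures. The CAAT box was found in *Tubb3*, *Tubb5* and *Vim*, in 10 of the 19 and in 33.8% of all promoters. The TATA element was found in *Prph* and *Vim*, in 6 of the 19 and in 12.4% of all promoters. An E-box (CACGTG, 6.02% of all promoters) was found in *Tubb5* alone among the 4. Neither the cAMP response element (TGACGTCA, 1.55%) nor the left part of the REST site (TTCAGCACC, 0.301%) was found in the 4. No motif was shared by all 4 promoters.

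The wider pathway was read from 8 lists with 182 further genes, of which 84 were tested. By limma 1 of the 84 was called lower and 0 higher, against 0.417% and 0.0695% of all tested genes. Without overlap, 4 of the 84 were lower and 2 higher, against 3.41% and 2.19% of all tested genes. The mean difference was 0 in 46 of the 84. The called gene was *Tppp3*, which encodes a protein that bundles microtubules. It was at 7 in each CTR library and at 5, 6 and 6 upon NPM1 KD (log2 fold change −1.33, SE 0.34, adjusted p = 0.026 by limma). This call, too, was lost when any library was left out. Among 11 tested MAPs and their kinases, the others were led by *Dclk1*, *Map6* (both −0.67) and *Gsk3b* (0.67), without passing the test.

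Among 10 genes of tubulin folding and modification, *Tbcb*, a tubulin folding cofactor, was at 6 in each CTR library and at 7 in each NPM1 KD library, the opposite direction to *Tubb3* and *Tubb5* (log2 fold change 1, adjusted p = 0.0791 by limma). The tubulin tyrosine ligase-like gene *Ttll4* was next (4, 4, 3 in CTR and 4, 3, 3 upon NPM1 KD; −0.33), and the other 8 genes had a mean difference of 0. Among 26 other motor and dynactin genes, 20 had a mean difference of 0. *Klc1*, a kinesin light chain, was at 6 in each CTR and at 5 in each NPM1 KD library (log2 fold change −1, adjusted p = 0.0791 by limma), and the dynactin gene *Dctn2* was at 7 in each CTR library and at 6, 7 and 6 upon NPM1 KD.

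Among 13 genes of axon growth and guidance, the adhesion molecule gene *L1cam* (5 in each CTR, 4 in each NPM1 KD library) and the GDNF family receptor kinase gene *Ret* (7 and 6) stood lower without overlap, with a log2 fold change of −1 and adjusted p = 0.0791 by limma. Among 10 plus-end and severing genes, *Clip1* was at 3 in each CTR and at 4 in each NPM1 KD library (log2 fold change 1, adjusted p = 0.166 by limma), and the next genes were tied at a difference of 0.33 in size. Of 10 nucleation and centrosome genes, *Mzt1* had the largest difference (4 in each CTR library and 5, 5 and 4 upon NPM1 KD), and the next were again tied at 0.33 in size. Of 4 further intermediate filament and linker genes, the neurofilament gene *Nefh* (4, 4, 5 in CTR and 4, 5, 5 upon NPM1 KD; 0.33) and the linker gene *Macf1* (4, 4, 3 and 3, 4, 3; −0.33) differed most, and neither passed the test. None of the 8 other tubulin genes passed the filter on low values; among them *Tubg2* was at 3 in all 6 libraries.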

How the data were processed

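RNA was read as long nanopore reads of PCR-amplified cDNA. The authors deposited rlog values per gene and library, here treated as a score on the log2 scale, together with a mean normalized count per gene; per the labels' processing notes the tools included minimap2, featureCounts and DESeq2 with build GRCm39, versions and settings not given in the sources used here. Columns with the authors' fold changes, test statistics and p-values were not used. The 26913 rows hold 26656 gene identifiers, each kept once. Reads per library are unknown; relative depths came from 742 genes whose mean normalized count could be split in a single way into a few whole reads.

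The 5752 genes whose rlog value averaged log2 of 10 or more entered a limma fit (version 3.58.1, R 4.3.3; lmFit, then eBayes with an intensity trend), two-sided, at a threshold of 0.05 after Benjamini-Hochberg adjustment over these genes. Residual variances below 0.0833, the variance that rounding adds, were raised to it. The fit was checked on simulated data. Groups were taken from the sample labels. No batch or date was used. Where the labels do not say that replicates are separate cultures, p-values measure no more than the spread between these libraries. The variances used were in part the limit of 0.0833 itself, as 40.2% of the tested genes had a single value in all libraries. The fit pooled these variances over genes of like level. *L1cam*, without spread within groups, and *Nefh* (4, 4, 5 in CTR and 4, 5, 5 upon NPM1 KD) thus had the same SE of 0.33. At a given level, a p-value follows the size of the mean difference and not the gene's own spread. Copies were found with BLAST 2.17.0 on GENCODE M21.

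Named were *Npm1*, the 39 genes, and of each pathway list those past the threshold or else the 2 with the largest change (1 where the second place was tied). *Dclk1*, *Map6* and *Gsk3b*, the markers named and the copies fall outside this rule and were named after their values were seen. The genes and lists were chosen with earlier results of these data known. Alternatives covered the filter, the variance limit, random draws of unrounded values (20), the trend, robust fitting, centring, a replicate block and leaving out each library. Some marker genes are not reported here.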

Additional observations from a re-analysis of the deposited data

How the results depend on the processing

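*Vim* stayed called with a robust fit, a filter at log2 of 30 and centred libraries, and in each of these 1 pathway gene was called lower. With no filter on low values all genes gave 1 higher and 10 lower, with the variance limit doubled 1 and 7, with random draws of the unrounded values 0 and 0 (290 genes at an unadjusted p under 0.05), and with the replicate block 1 and 7; in these 4 settings 0 cytoskeletal and 0 pathway genes were called lower. With no variance limit all genes gave 123 higher and 178 lower, with 6 cytoskeletal genes lower (*Tubb3*, *Tubb5*, *Stmn2*, *Mapt*, *Gap43* and *Prph*, but not *Vim*) and 2 higher and 3 lower pathway genes. Without the intensity trend there were 132 and 218, with 7 cytoskeletal genes lower (the same 6 and *Vim*) and 2 higher and 4 lower pathway genes. Leaving out each library in turn gave 0 to 2 genes higher and 5 to 9 lower over all genes, 0 cytoskeletal and 0 pathway genes lower in each case, and 7 to 9 cytoskeletal genes lower without overlap. That last count could not fall below 7, since groups without overlap stay so when a library is left out. Its share over all tested genes was not computed. With a library left out, the median over the cytoskeletal genes ran from −0.5 (without NPM1 KD replicate 3) to 0 (without NPM1 KD replicate 1), and it was −0.27 with random draws. Genes within 0.25 of a rounding boundary, an alternative chosen after seeing the data, gave 1 higher and 3 lower over all genes, 0 cytoskeletal and 0 pathway genes lower, and a median of −0.67. Same-numbered libraries of the groups showed no shared deviation in the rounded values (correlations 0.0089, 0.0013 and 0.030). This cannot exclude pairing, since the values are whole numbers and 40.2% of the tested genes had a single value throughout. The main fit did not take the numbers as pairs, and with the replicate block the *Vim* call was lost (adjusted p = 0.167 by limma). No fold change of a cytoskeletal gene reversed among those that were not 0 in the main fit. The 11 genes at 0 could not be counted as reversed. Of these, *Marcks* ran from −0.33 to 0.33 as libraries were left out. Overlap was not computed for centred libraries, since centring splits equal whole numbers. What depth limits was not tested.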
